A study of Drosophila melanogaster with 4 samples.

Results

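Outside the broad gene (br), the X chromosome of *Drosophila melanogaster* carried 231 peaks of GFP-tagged Ultraspiracle (Usp) in wandering larvae of the third instar, of 3053 peaks in the deposited list. They were chosen by position alone, as all X peaks except the 14 whose midpoint lay from 1450000 to 1600000 in FlyBase release 5, the window of br. The members nearest to that window were the peaks from 1171080 to 1171282 (score 16.4) and from 1719247 to 1719559 (score 11.1). The peaks just inside it were those from 1459145 to 1459357 (score 10.5) and from 1514693 to 1515062 (score 7.31). The 2 ChIP and 2 input libraries came from the same line, labelled USP-GFP, which carries a transgene of the *usp* genomic coding region at the attP site PBac{y[+]-attP-3B}VK00033. ChIP used a rabbit polyclonal antibody to GFP, and input was chromatin without immunoprecipitation. The stage is L3 and the sex unknown in the labels of all 4 libraries, and the protocol speaks of *y; bw cn sp* flies in place of that line. Larvae were cross-linked with no dissection described, so a peak cannot be tied to a tissue.

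Usp is a nuclear receptor of the retinoid X receptor family. It pairs with the ecdysone receptor EcR, and the pair binds DNA, switching target genes on when the steroid 20-hydroxyecdysone is present and holding many of them off when it is not. Ecdysone pulses at the end of larval life start pupariation, and their first targets on X include br, at the early puff of the salivary gland polytene chromosomes.

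The authors deposited 1 peak list for the whole series, with no value per library, so peaks have no replicate error and the depth of each library is unknown. No test was made across peaks, and differences between X and the autosomal arms are given as values. The score is on a scale the sources do not state. Its 52 most repeated values (10 or more peaks each) matched −log10 of the Poisson tail of whole-number pileups over a background of 43.9 fragments with a mean error of 0.00298. A peak within 0.01 of that series is called on it. Being on it says only that the score matches this 1 background, and is no measure of peak quality. The fold of a peak on the series is the implied pileup over this fitted background, with a 95% Poisson interval that covers counting error only. Peaks off the series have no fold. Both the pileup and the background are inferred from the scores.

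The X peaks were mostly narrow and of modest enrichment, with a highest score and a largest width far above the rest. Their scores ran from 6.74 to 483 with a median of 14.03 (quartiles 10.8 and 18.9), beside a median of 12.2 on the autosomal arms. Widths ran from 201 to 14197 bp with a median of 310 bp, beside 328 bp on the autosomal arms, and 86.1% were under 500 bp, beside 75.4%. On the series lay 214 of the 231, 92.6% (exact binomial interval 88.5 to 95.7%), against 74.9% of all arm peaks and 73.4% (71.7 to 75.0%) of the autosomal ones. Each of the 4 large autosomal arms lay between 70.7% (2R) and 74.9% (2L). With a distance of 0.015 in place of 0.01 the shares were 98.3% on X and 79.2% on the autosomal arms. Of the 17 X peaks off the series at 0.01, 8 had a score of 9.77 and 4 a score of 8.19. These 2 scores missed the series by only 0.0133 and 0.0127, so the limit of 0.01 decided their place. The folds of the 214 ran from 1.87 to 5.79 with a median of 2.39, beside a median of 2.28 for 1999 autosomal peaks. Fold comparisons thus cover 92.6% of the X peaks but only 73.4% of the autosomal ones, so the 2 sets are filtered unequally. A fold of at least 3 was reached by 28 of the 214, 13.1%, beside 9.85% of the autosomal peaks on the series. The background is a single value fitted to the whole list, and the share of X chromosomes in animals of unknown sex is not given.

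**Figure D1:**
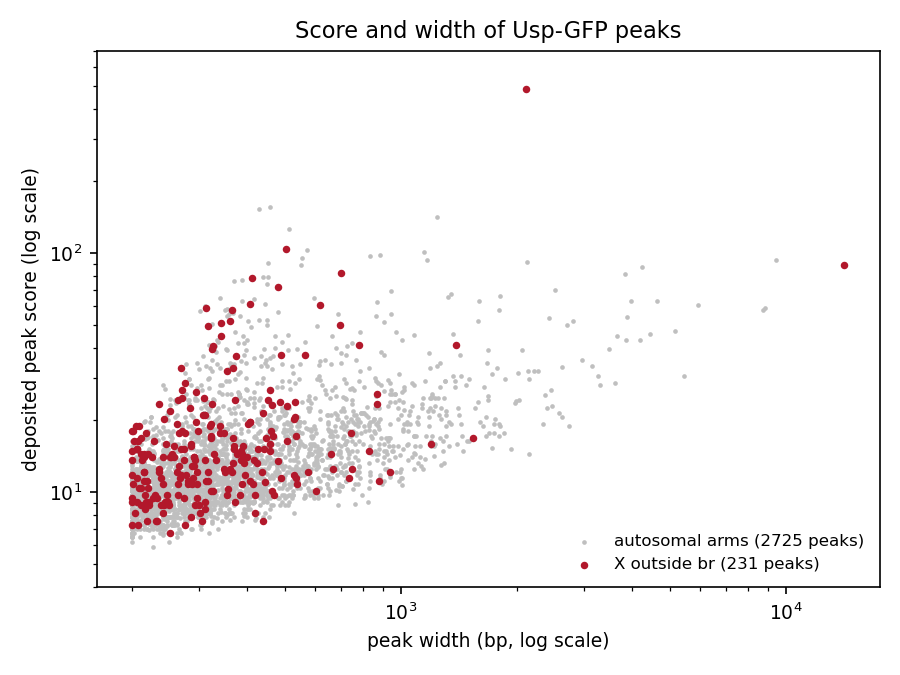
Deposited score (vertical, log scale) against peak width in bp (horizontal, log scale); each point is 1 peak, red for the 231 X peaks outside br and grey for 2725 autosomal arm peaks. The red point of score 483 stands above all others and the red point of 14197 bp lies farthest right.

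The highest score of any arm peak belonged to an isolated X peak, from 10817717 to 10819832. It was 2116 bp wide with a score of 483, 4.65 times the next score on X, and stood 148 kb from the closest other peak. The highest autosomal score was 155. What set this peak apart was not tested. It missed the Poisson series by 0.0107, just over the limit of 0.01. At 0.015 it would have a pileup of 636, or 14.5 times the background (13.4 to 15.7).

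Below it, 17 further members scored at least 40, all on the series, with folds from 3.65 to 5.79. The strongest lay from 2190128 to 2190630 (503 bp), with a score of 104 and a fold of 5.79 (5.10 to 6.54). It was followed by the widest peak, 1834575 to 1848771, at 5.33 (4.67 to 6.06). A 700 bp peak from 12644930 to 12645629 reached 5.13 (4.48 to 5.84). The intervals of these 3 peaks overlap, so their order is not settled by the counts.

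Next came the peaks from 9478779 to 9479188 at 4.99 (4.35 to 5.70) and from 2540175 to 2540654 at 4.78 (4.16 to 5.48). The peak from 12629482 to 12629888 stood at 4.42 (3.82 to 5.09), and that from 4803982 to 4804598 at 4.40 (3.80 to 5.06). The last 3 of the 10 highest folds were 4.33 (3.74 to 4.99) from 2031227 to 2031538, 4.28 (3.69 to 4.94) from 9479306 to 9479670 and 4.08 (3.50 to 4.72) from 7201017 to 7201377. Neighbours in this order overlap in their intervals throughout.

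Strong peaks were spread over many loci. The 18 members scoring at least 40 fell into 16 joined regions (peaks at most 5 kb apart), and only the regions 9473124 to 9479670 and 12641862 to 12650201 held a pair of them. Of the 18, 6 stood alone, 8 lay in regions of 2 to 4 peaks and 4 in regions of 5 or more. In all, 79 members, 34.2%, were in the top 25% of arm peaks by score (25.8% of arm peaks with ties), beside 25.1% of the autosomal peaks.

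**Figure D2:**
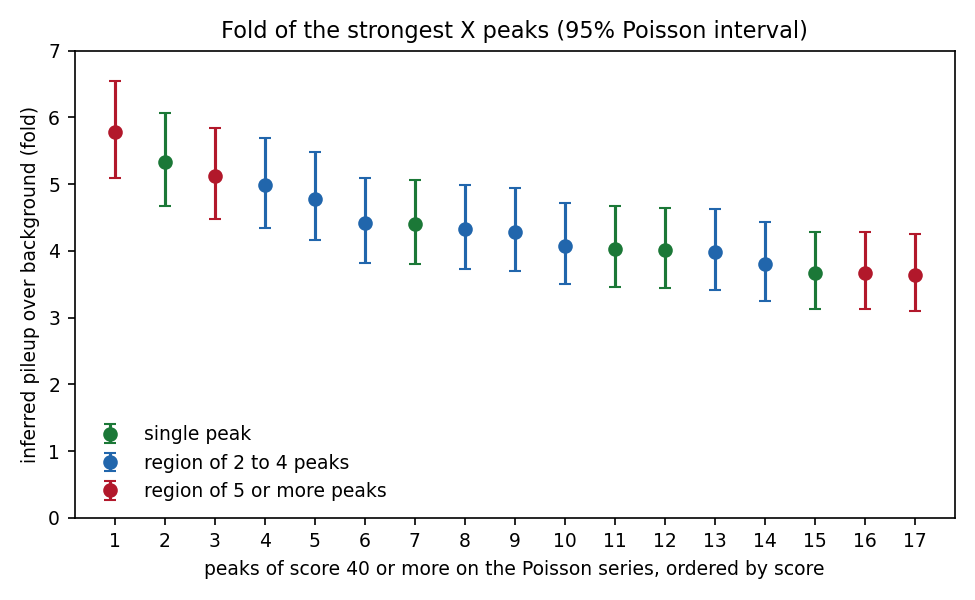
Inferred pileup over background (vertical, fold, from 0) for the 17 X peaks of score 40 or more on the Poisson series, ordered by score (horizontal); points are folds, bars 95% Poisson intervals, and colours the number of peaks in the joined region. Folds run from 5.79 down to 3.65, and single peaks, small regions and large regions are mixed along the order.

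Broad peaks were few. Only 5 members, 2.16% (0.706 to 4.98%), were wider than 1 kb, against 6.43% of all arm peaks and 6.79% (5.87 to 7.80%) of the autosomal ones. The widest, from 1834575 to 1848771, was 6.71 times as wide as the second and made up 14.4% of the 98.9 kb that the 231 peaks covered. It was also the widest of all arm peaks. It began 235 kb past the end of the br window and formed a region of its own, but a region of 6 peaks, 1856943 to 1865203, began 8.17 kb after it. With peaks joined at 20 kb these 7 peaks made 1 domain of 30.6 kb, of which 57.1% was covered.

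The second in width was the isolated peak of score 483. The other 3 over 1 kb were weaker. A 1538 bp peak from 1857812 to 1859349, in that region of 6, had a fold of 2.53 (2.08 to 3.05). A 1392 bp peak from 17774992 to 17776383 reached 3.67 (3.12 to 4.28), and a 1198 bp peak from 17190404 to 17191601 had 2.48 (2.04 to 3.00). The next 5 in width ran from 829 to 941 bp. Of these, 2 lay in the region with most peaks (2196861 to 2197801 and 2198569 to 2199397). The other 3 were 10103907 to 10104786, 2541450 to 2542317 and 7986410 to 7987275.

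Joining peaks at most 5 kb apart gave 117 regions. Another peak lay within 5 kb of 157 members, 68.0% (61.5 to 73.9%), against 80.1% of all arm peaks and 81.1% (79.5 to 82.5%) of the autosomal ones. A sparser arm gives a lower share by position alone, and this was not tested. The 157 members lay in 43 regions. A peak and its neighbour both count, so they are not independent and these intervals are too narrow. Single peaks made up 74 regions, 35 regions held 2 to 4 peaks, and 8 held 5 or more. Those 8 contained 68 peaks, 29.4% of the members, beside 54.3% of the autosomal peaks in regions of that size.

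The region with most peaks ran from 2187647 to 2201403, with 13 peaks over 13.8 kb. It had 1 dominant peak, that of score 104, while the second score was 28.6 (2194587 to 2194861, fold 3.12) and the median 11.8. The remaining peaks ran on as a low train of narrow and broader stretches, with a median gap of 302.5 bp, and 40.8% of the region was covered. The next peak on the low-coordinate side of the dominant one lay 2280 bp away, at fold 2.60. On the other side the next peak lay 328 bp away, at fold 2.46.

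A second layout was a long train with no dominant peak. From 3567664 to 3590684, 12 peaks spread over 23.0 kb, with scores of only 7.31 to 17.6 and no fold above 2.57 (2.12 to 3.10). From 5783101 to 5800803, 10 peaks over 17.7 kb had scores of 7.60 to 20.2 and a largest fold of 2.71 (2.25 to 3.24). In the region from 3636118 to 3644923, 6 peaks over 8.81 kb ranged in fold from 2.07 to 2.64. Covered shares were 18.0%, 19.6% and 19.0%, so these trains were mostly gap.

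Some of the other regions were compact. From 1719247 to 1725240, the first region past the br window, 9 peaks lay within 5.99 kb, covered 64.0% of it and had a median gap of 258 bp. All 9 were on the series, with folds from 2.19 to 2.94, and the highest was the last, from 1724971 to 1725240. The region from 17773108 to 17779198 held 6 peaks over 6.09 kb, 47.7% covered, around its 1392 bp peak. The region from 1856943 to 1865203 was less compact, with 6 peaks over 8.26 kb, 39.9% covered, and a largest gap of 3448 bp. Of its 6 peaks, 3 were off the series, of 17 such members in all. At a tolerance of 0.015 only 2 of these 6 were off it, of 4 members in all. The largest fold in the region was 2.60 (2.14 to 3.12).

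The region from 12641862 to 12650201 held 6 peaks, of which the peak of fold 5.13 and the peak from 12646245 to 12646570 (fold 3.65, 3.10 to 4.26) lay 615 bp apart. A region of 4 peaks, 12624595 to 12633741, ended 8.12 kb before it and held the peak of fold 4.42. Both together spanned 25.6 kb. In 1 of the 8 regions of 5 or more peaks the highest score was the first or last peak, and in the other 7 it was an inner one.

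**Figure D3:**
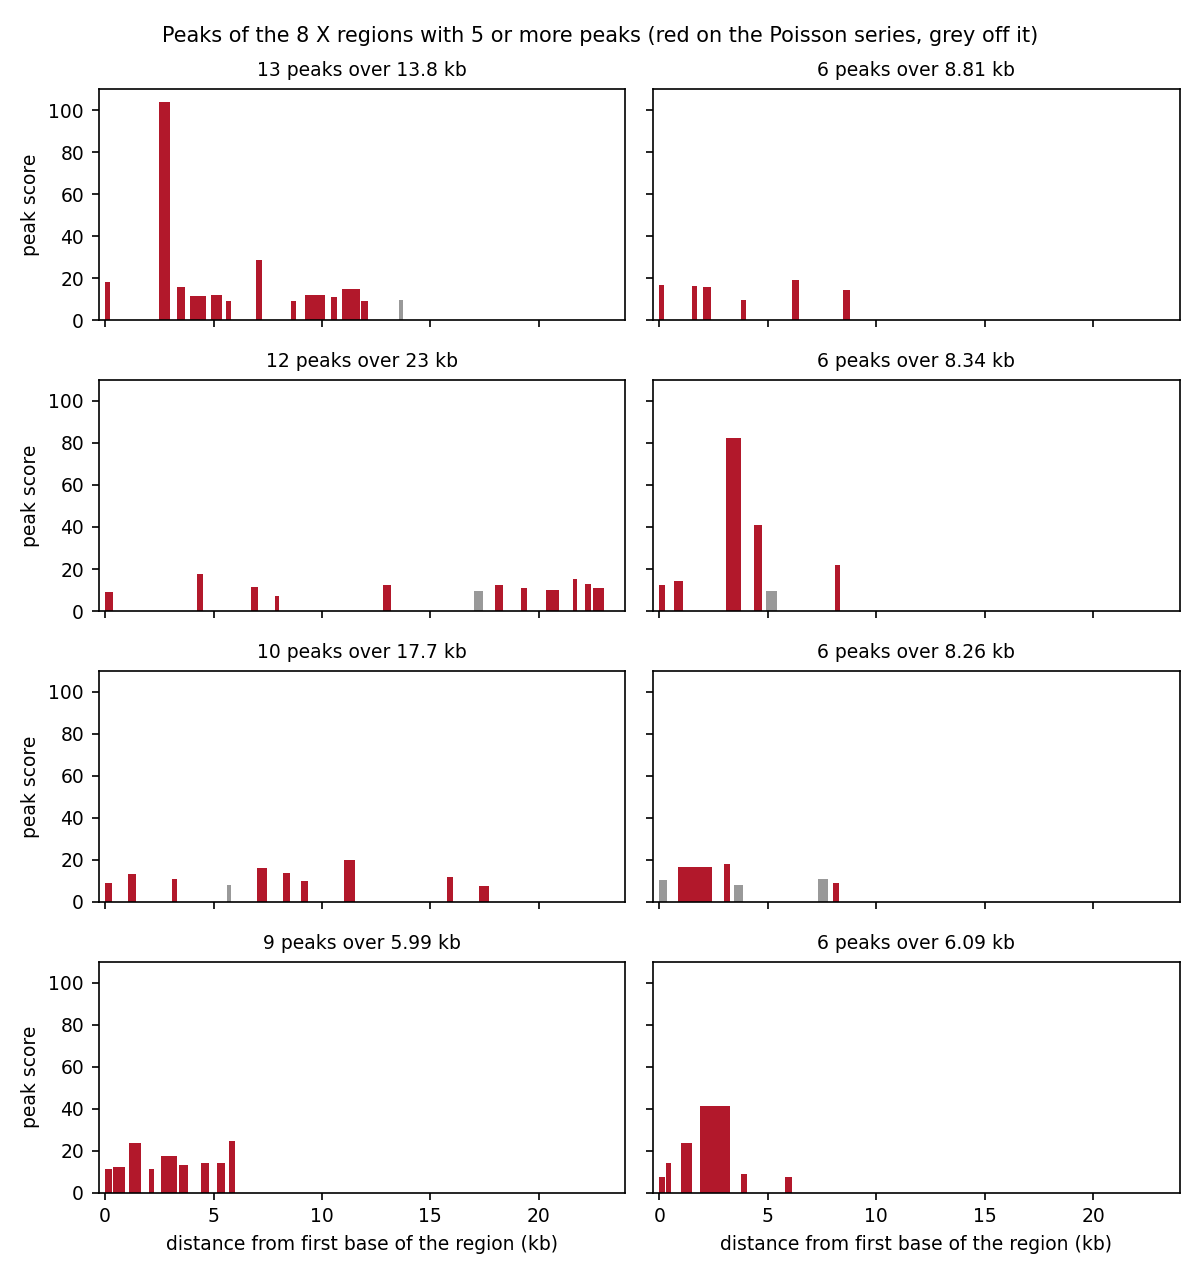
Peaks of the 8 X regions with 5 or more peaks; each bar is 1 peak, its place and width the distance in kb from the region's first base (horizontal) and its height the deposited score (vertical, from 0), red on the Poisson series and grey off it. The region of 13 peaks has 1 tall bar, of score 104. The region of 6 peaks over 8.34 kb has a bar of score 82.5 and a second of 40.8. The 12 peaks over 23 kb all stay at 17.6 or below.

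Peaks of the large regions had no higher median score on X than the others. The median score was 12.2 for the 68 peaks in regions of 5 or more, 14.8 for the 89 in regions of 2 to 4 and 14.03 for the 74 single peaks. In the autosomal arms the same medians were 12.2, 11.7 and 12.6. Median widths on X were 326, 323 and 285 bp in that order, beside 365, 315.5 and 284 bp on the autosomal arms. Peaks of 1 region share their locus, so these medians rest on fewer independent loci than peaks.

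Of the 74 single peaks, 58 had no neighbour within 10 kb, and the median distance to the nearest peak was 37.0 kb. Besides the peak of score 483, the strong single peaks included 21238707 to 21239048 (342 bp, fold 4.03, 3.46 to 4.67), which lay 314 kb from its nearest neighbour. The single peak from 9539987 to 9540681 reached 4.01 (3.44 to 4.65), and that from 10367672 to 10368452 reached 3.67 (3.12 to 4.28). The single peak from 4803982 to 4804598, at 4.40, had another one 7.79 kb away.

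Members were unevenly spread along X. The first 4 Mb held 78 members, 33.8%, and 5 of the 8 regions of 5 or more peaks, while the last member ended at 21893193. By Mb from the start of X, these 4 Mb held 1, 22, 31 and 24 members. The 3 longest stretches without any X peak were 13855364 to 14844872 (990 kb), 15216903 to 16172796 (956 kb) and 4812876 to 5590385 (778 kb), and 13 stretches exceeded 500 kb. How much of them reads could map to was not analysed here.

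At a given score, the stronger X peaks had lower median widths than autosomal ones. For scores from 20 to below 30, the median width was 324 bp (quartiles 275 and 487) for 25 X peaks and 607 bp (372 and 966) for 265 autosomal peaks. For scores from 15 to below 20 it was 320 bp (48 peaks) and 479 bp (422 peaks), and at 30 and above it was 407 bp (25 peaks) and 553 bp (173 peaks). Below 10 the medians were 246 and 252 bp, and from 10 to below 15 they were 296 and 313 bp. The quartile ranges of X and autosomal peaks overlapped in every band. Among peaks scoring at least 40, 15 of 18 on X and 61 of 92 on the autosomal arms were no wider than 1 kb. Across the 231 members, score and width had a Spearman correlation of 0.35 and a Pearson r of their log10 values of 0.46. Both values describe peaks that share 1 peak call, which set width and score together. Without the peak of score 483 and the widest peak, they were both 0.34.

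**Figure D4:**
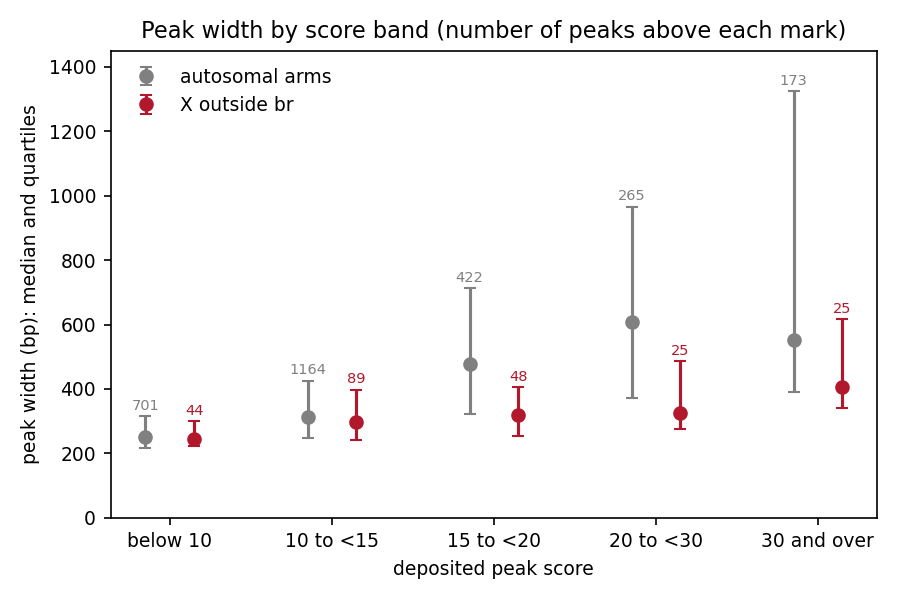
Peak width in bp (vertical, from 0) in 5 bands of the deposited score (horizontal) for X outside br (red) and the autosomal arms (grey); points are medians, bars quartiles, and numbers the peaks in each band. The medians lie close below a score of 15, while from 20 to below 30 they are 324 and 607 bp.

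No gene was assigned to a peak, since the peaks are in release 5 and the only gene table at hand follows Release 6. As background on X, that table places 12 genes of the ecdysone pathway or of ecdysone-timed tissues on this chromosome. *dor*, which acts in transport to lysosomes, directly follows br. Beyond it in gene order come *trr*, a histone methyltransferase that works with EcR, *Hr4*, an ecdysone-induced nuclear receptor gene, and *usp* itself. The salivary gland genes *ng1*, *ng2*, *ng3* and *Pig1* lie together with the glue gene *Sgs4*. *Smr*, a corepressor of EcR and Usp, lies farther along. *phm* (listed as *phtm*), a hydroxylase of ecdysone synthesis, and *Cyp18a1*, which inactivates ecdysone, adjoin each other. Which members lie at these genes was not analysed here. The animals carry *usp* in the transgene as well as on X, and reads from both copies would align to the X gene.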

How the data were processed

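ChIP and input DNA of wandering larvae was sequenced in 2 libraries each. The authors deposited 1 peak list with a score per peak, called with MACS on FlyBase release 5, per the file headers. The submitters' processing notes add MACS2, BWA, CASAVA (1.7.0.2, 1.7.0.3) and the build BDGP5. Per the labels' protocols, flies were reared at 25 °C and cross-linked for 15 min in 1.8% formaldehyde. Not given in the sources used here are the calling threshold, the pooling of replicates, the depth, the meaning of the score, and whether replicates came from separate cultures.

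The members and lists were chosen with earlier results of these data known. The background of the Poisson series was fitted on all 3053 scores, and peaks were joined edge to edge at 5 kb. Peaks named are the 10 highest scores, folds and widths, regions of 5 or more peaks and the 3 longest empty stretches; strong single peaks, score bands and regions of 4 peaks were chosen after their values were seen. Distances of 1 and 20 kb, a tolerance of 0.015, the top 50% by score and keeping the br window were tried. In 10 simulated lists the fitted background erred by at most 0.00169, and of peaks simulated with a higher local background up to 12.1% fell on the series. The lists were drawn from the same Poisson model, so they do not test the scale of the score. Release 5 annotation and sequence were not used here. Computation used Python 3.11.15 with scipy 1.17.1, pandas 2.3.3, numpy 2.4.6 and matplotlib 3.10.9. All intervals are at 95%, exact Poisson for folds and exact binomial for shares, and hold counting error alone. Those of shares take peaks as independent, which peaks of 1 region are not, so they are no test of X against the autosomal arms.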

Additional observations from a re-analysis of the deposited data

How the results depend on the processing

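No paired analysis was possible because the series has 1 peak list in which the libraries are combined; leaving out a replicate was not possible for the same reason. Among 10 alternative values, 6 stayed within their limits: the exact interval for shares and medians, or 1.5 times the main count. Of members, 92.6% lay on the Poisson series, and 98.3% with a tolerance of 0.015. Another peak lay near 68.0% of members at 5 kb, 43.7% at 1 kb and 80.5% at 20 kb. The median width of 310 bp became 336 bp among the 150 members in the top 50% of arm peaks by score. The first and the second follow from the wider or narrower limit itself; the cause of the last was not tested. The number of regions, 117, was 167 at 1 kb, 90 at 20 kb and 94 in the top 50%. Keeping the br window gave a median score of 13.7 in place of 14.03. Without depth per library, precision beyond counting error is unknown.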
